A study of Homo sapiens with 5 samples.

Results

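The transcripts described here encode the 26S proteasome of HepG2 cells and the factors that assemble or regulate it. Members were genes with a probe set of a single symbol that begins PSMA to PSMG followed by a number, with PSME3IP1, ADRM1 and POMP, and without the inducible core subunits PSMB8 and PSMB9. The rule found 42 genes among the 12893 genes measured, read by 78 probe sets. It used no measured value. A further 7 symbols that meet the rule (PSMA6, PSMA8, PSMB11, PSMC5, PSMD7, PSMD13 and PSME2) had no probe set of their own alone and are not analysed here.

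HepG2 is a human hepatic carcinoma line. Cells growing in medium with 25 mM glucose and 10% serum were given siRNA by lipofection at about 50% confluence and lysed 3 to 4 days later. In the LSD2 group, 3 different siRNAs against LSD2, the histone H3 lysine 4 demethylase encoded by KDM1B, were each measured on 1 GeneChip array. In the control group, siRNA against GL3, a firefly luciferase sequence, was measured on 2 arrays, the second of which the labels name as a technical replicate, so the control counted as 1 sample. The spread behind each p-value combines that of the gene between the 3 LSD2 siRNAs, each on 1 array, with a spread pooled over all genes. Both hold differences between siRNAs together with those between cultures and arrays, which cannot be told apart. No label ties the arrays to replicate cultures of 1 siRNA. The comparison asks how transcript abundance differs once LSD2 is depleted. The model is limited to 1 cell line and to a partial loss of the transcript.

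The 26S proteasome degrades proteins that carry ubiquitin chains. Its barrel-shaped core has outer rings of alpha subunits, which gate the entrance, and inner rings of beta subunits, which hold the proteolytic sites. A cap sits on the core: its base contains a ring of ATPases that unfold the substrate, scaffold subunits and ubiquitin receptors, and its lid removes the ubiquitin. Dedicated chaperones build these rings, and other activators and inhibitors can take the place of the cap. The transcription factor NFE2L1 raises the genes of core and cap together when proteasome activity falls short. Hepatocytes rely on this machine for the turnover of apolipoprotein B, lipid enzymes and misfolded secretory proteins.

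Deposited values were treated as log2 values, with base 2 assumed. Each probe set was centred on its own median over the 5 arrays, so the values hold differences between arrays and no level of a gene. A difference below is an array's value minus the mean of the 2 control arrays, on the log2 scale, after averaging the probe sets of a gene. The targeted transcript KDM1B had values of 1.56 and 0.78 in the controls against -1.43, -0.56 and -0.22 for siRNAs 1 to 3. All 3 knockdown arrays read below both controls, at a mean difference of -1.90 ± 0.63 (SD, n = 3 siRNAs), which limma did not call (adjusted p = 0.9999 over all genes). The probe sets of KDM1B differed in size, at -2.90 (227021_at) and -0.90 (1553150_at). On 1553150_at the siRNA 2 array read 0.00, little below the 0.08 of control array 2. Poly-A transcripts spiked in before labelling read lower on control array 2 and siRNA 3, by medians of -1.45 and -1.39 over 24 probe sets against control array 1. The medians were 0.04 and 0.07 for siRNAs 1 and 2. Whether cells were fewer or held less RNA of a gene cannot be told apart in such bulk samples. Of 10 hepatic marker genes 9 were measured, of 10 immune markers 7 and of 10 stromal and endothelial markers 5, but as levels were not in the values, presence or absence of a cell type could not be read from them. The number of arrays limits the precision of every value.

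Proteasome transcripts were higher under siRNA 3 in nearly every subunit of core and cap, while under siRNAs 1 and 2 about as many were higher as lower. Under siRNA 3, 38 of the 42 genes were above the control and 4 below, where 51.3% of all genes were above. Their median difference was 0.32, against 0.01 over all genes, and single genes ranged from -0.45 (PSMA3) to 1.04 (PSMB7). Under siRNA 1, 21 were higher and 21 lower with a median of 0.00, beside 46.6% of all genes higher. Under siRNA 2, 23 were higher and 19 lower with a median of 0.06, beside 51.7% of all genes higher. The differences were small in size: beyond 0.5 in either direction lay 3 members under siRNA 1, 2 under siRNA 2 and 9 under siRNA 3, all 9 of them higher. Over all genes, 16.3%, 22.0% and 15.8% stood more than 0.5 above the control under siRNAs 1, 2 and 3, and 18.3%, 20.0% and 14.7% more than 0.5 below it.

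**Figure D1:**
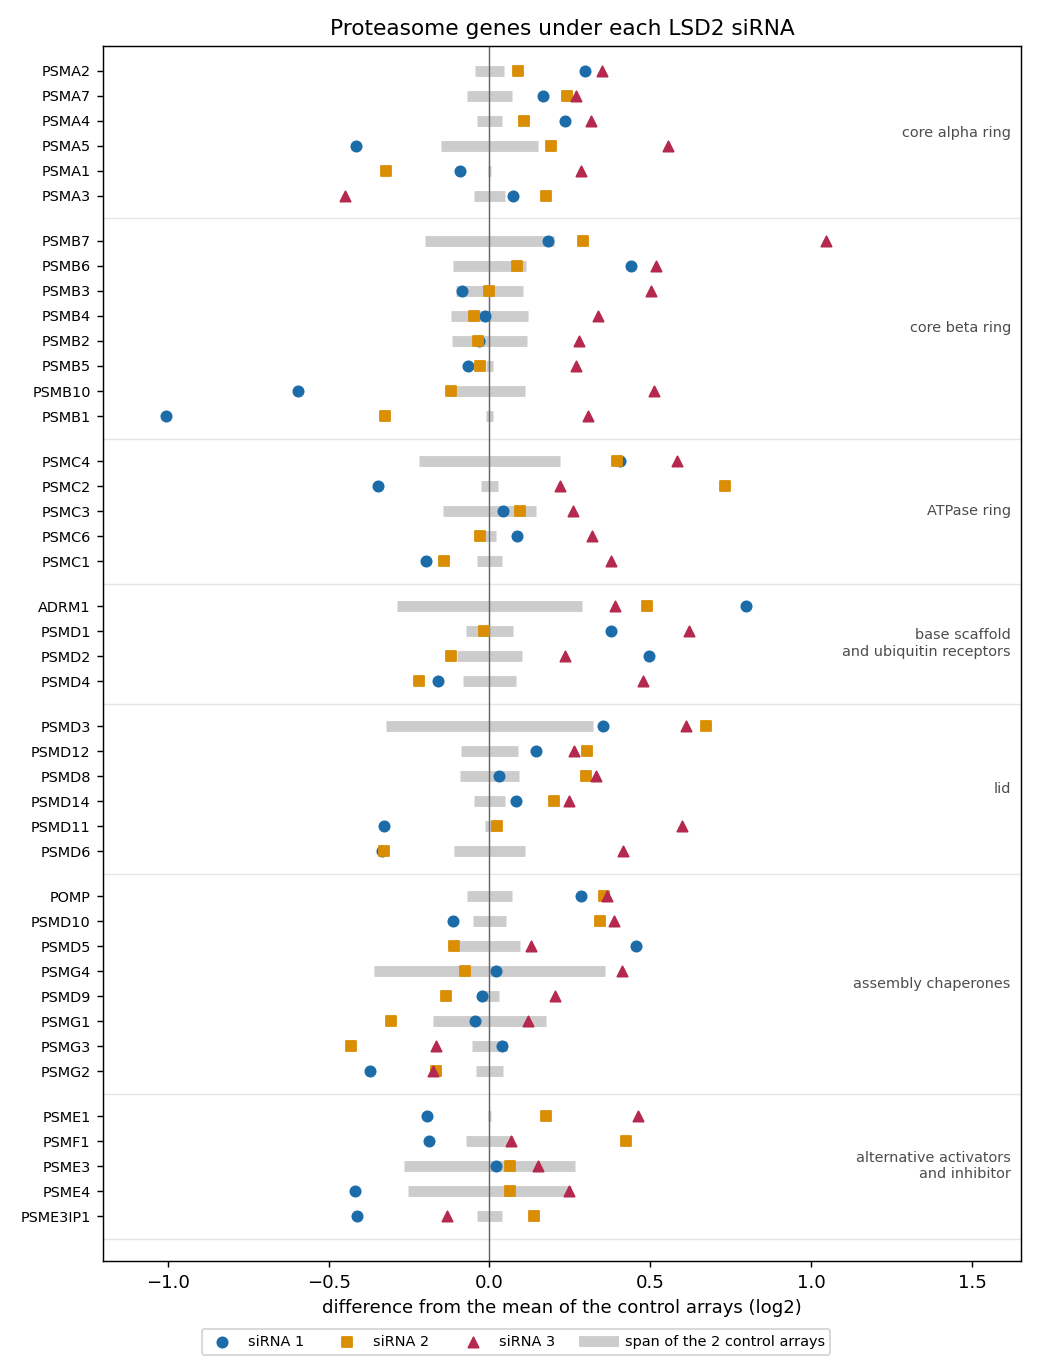
Difference from the mean of the control arrays (log2, x axis) for each of the 42 proteasome genes, grouped by place in the complex; circles, squares and triangles are siRNAs 1, 2 and 3, each 1 array, and grey bars span the 2 control arrays. Triangles lie right of 0 in 38 genes, with PSMB7 farthest right at 1.04, while circles and squares fall on both sides.

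No member passed the test. In limma, with the 3 siRNAs against the averaged control, 0 of the 42 members reached an adjusted p under 0.05, where 0.0% of all 12893 genes did, and the lowest adjusted p = 0.9999 over the members. Without adjustment, 0 members had a p below 0.05, beside 1.33% of all genes higher and 0.357% lower. Limma standard errors of the members ran from 0.38 to 0.61, and the largest mean difference of a member was 0.56. In mean difference over the siRNAs, the members ran from -0.34 (PSMB1) to 0.56 (ADRM1), with a median of 0.12 beside -0.02 over all genes. Without siRNA 3 that median was 0.04, and without siRNA 1 it was 0.19.

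Members higher under all 3 siRNAs numbered 14, where 17.9% of all genes were, and 1 was lower under all 3, PSMG2, where 18.2% were. On every one of the 3 knockdown arrays 9 members read above both control arrays: PSMA2, PSMA4, PSMA7, PSMC4, ADRM1, PSMD3, PSMD12, PSMD14 and POMP. Over all genes 8.63% did so, and 10.1% read below both controls on all 3, as PSMG2 alone did among the members. These counts use the average of a gene's probe sets. Read singly, neither probe set of PSMD12 stood above both controls on all 3, nor did 201317_s_at of PSMA2 or 216088_s_at of PSMA7. None of the members on one side under all 3 siRNAs had a weakest difference of at least 0.3 that also exceeded the gap between its control arrays. For 3 members (PSMC4, ADRM1 and PSMD3) the weakest difference was above 0.3, but their control arrays differed by -0.44, -0.57 and -0.64.

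The siRNA 3 array was compared with each control array on its own. Against control array 2, which shares its spike-in level, 37 of the 42 members were higher, with a median difference of 0.34, and 53.5% of all genes were. Against control array 1, 35 members were higher, with a median of 0.30, beside 47.7% of all genes. Against the same array, 20 members were higher under siRNA 1 and 21 under siRNA 2, beside 43.1% and 47.7% of all genes. The 2 control arrays differed over the members by a median of -0.03, and 17 of 42 were higher on control array 2, beside 44.4% of all genes. Set beside the other knockdown arrays, with no control involved, siRNA 3 was the highest of the 3 in 31 members and the lowest in 2, where it was highest in 35.2% of all genes. The siRNA 1 array was highest in 4 members and siRNA 2 in 7, beside 29.8% and 35.0% of all genes. The siRNA 3 array was the highest of all 5 arrays in 28 members, against 20.9% of all genes. The control arrays of the members lay closer together than those of genes at large, at a median gap of 0.15 in size beside 0.31. Among genes with control arrays under 0.5 apart (68.7% of all), 33 of 37 members and 50.1% of genes were higher under siRNA 3.

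**Figure D2:**
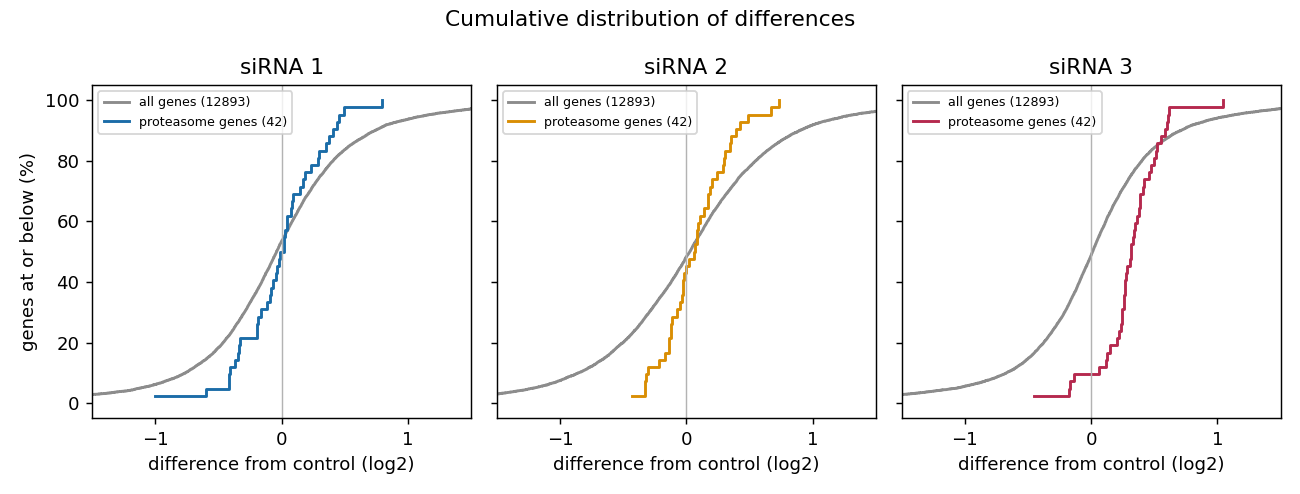
Share of genes (%, y axis) at or below a given difference from the control (log2, x axis, shown from -1.5 to 1.5) for the 42 proteasome genes in colour and all 12893 genes in grey, 1 panel per siRNA. Under siRNAs 1 and 2 the coloured steps cross the grey curve near 0, and under siRNA 3 they lie to its right, with a median of 0.32 against 0.01.

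Other readouts differed between the siRNAs as well. Hepatic markers were higher under siRNA 3 in 9 of 9 genes, with a median of 0.84 and a range from 0.22 to 2.69. They were also higher under siRNA 2 in 8 of 9, with a median of 0.60. They were lower under siRNA 1 in 8 of 9, with a median of -0.49. The spike-in level of the siRNA 3 array was low, as given above. The cell cycle list of 32 genes read lower under siRNA 2 in all 32 (median -1.25), with medians of -0.10 and -0.17 under siRNAs 1 and 3, while the proteasome median under siRNA 2 was 0.06. Immune markers had medians of 0.32, -0.07 and 0.12 for siRNAs 1 to 3, and stromal and endothelial markers of 1.10, -0.32 and -0.84. Under siRNA 3 the range of single markers was -0.77 to 1.36 for the immune and -2.27 to 1.51 for the stromal and endothelial list. The part of these differences in the proteasome values was not tested.

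Upstream sequence is shown for 6 members that the results below turn on: the genes highest in the ATPase ring, the base, the lid and the assembly factors (PSMC4, ADRM1, PSMD3, POMP), PSMB3 as a core gene that was higher under siRNA 3 alone, and PSMG2, the gene lower under all 3 siRNAs. Each line is the 150 bases before the gene's start in RefSeq (GRCh38.p14), 5′ to 3′ on the gene's strand. Capitals mark TGACNNNGC, the core of the antioxidant response element bound by NFE2L1 and NFE2L2, and CCAAT, the box bound by NF-Y, on either strand. The stretches lie at chr19:39971015-39971164 (plus strand), chr20:62302746-62302895 (plus), chr17:39980657-39980806 (plus), chr13:28658980-28659129 (plus), chr17:38752591-38752740 (plus) and chr18:12658588-12658737 (plus).
PSMC4: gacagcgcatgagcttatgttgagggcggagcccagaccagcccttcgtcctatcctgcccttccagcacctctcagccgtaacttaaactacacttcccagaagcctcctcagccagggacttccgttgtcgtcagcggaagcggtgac
ADRM1: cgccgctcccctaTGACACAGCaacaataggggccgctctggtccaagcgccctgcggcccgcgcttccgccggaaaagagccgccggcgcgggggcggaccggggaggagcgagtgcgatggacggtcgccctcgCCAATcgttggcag
PSMD3: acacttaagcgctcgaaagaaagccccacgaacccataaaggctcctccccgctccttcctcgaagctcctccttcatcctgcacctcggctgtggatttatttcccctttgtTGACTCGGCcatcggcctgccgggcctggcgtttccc
POMP: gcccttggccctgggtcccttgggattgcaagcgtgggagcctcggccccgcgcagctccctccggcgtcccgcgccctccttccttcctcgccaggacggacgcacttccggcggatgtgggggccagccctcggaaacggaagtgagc
PSMB3: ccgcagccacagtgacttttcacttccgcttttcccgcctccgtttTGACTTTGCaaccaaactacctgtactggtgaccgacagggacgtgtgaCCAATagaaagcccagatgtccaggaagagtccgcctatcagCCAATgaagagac
PSMG2: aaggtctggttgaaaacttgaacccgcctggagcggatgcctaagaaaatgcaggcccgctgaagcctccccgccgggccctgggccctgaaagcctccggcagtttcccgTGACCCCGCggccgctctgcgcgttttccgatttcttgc

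In these stretches the TGACNNNGC match stands 137 bases before the start of ADRM1, 37 before PSMD3, 104 before PSMB3 and 39 before PSMG2, counted to its first base. The promoter table held 36 of the 42 members, 7 of them with more than 1 start, of which the first listed was used. Over the 250 bases before the start, TGACNNNGC was found in 10 of 36 members (27.8%), beside 3013 of all 27305 promoters and 12.2% of those of measured genes. It was in 0 of 5 alpha, 1 of 5 beta and 0 of 5 ATPase promoters. PSMB3 was the only core gene with it, and other core genes higher under siRNA 3 alone, such as PSMB5, had none. In the other subgroups it was in 1 of 3 base, 2 of 6 lid, 4 of 7 assembly and 2 of 5 activator and inhibitor promoters. The stretches shown thus do not stand for its share among the members. CCAAT was found in 16 of 36 (44.4%), beside 33.0% and 35.1%. Another motif, ACTTCCG, which ETS factors bind and which was chosen after the sequences were seen, was in 11 of 36 (30.6%), beside 6.02% and 10.7%. It stands in lower case in the PSMC4, POMP and PSMB3 stretches and overlaps neither of the other motifs there. The 10 members with TGACNNNGC had a median difference of 0.25 under siRNA 3, and 9 of them were higher. The 26 without it had a median of 0.32, and 24 were higher. With CCAAT the median was 0.30 (14 of 16 higher) and without it 0.32 (19 of 20 higher).

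The alpha ring, whose tails close the entrance to the core, was higher in 4, 5 and 5 of 6 measured genes under siRNAs 1, 2 and 3. Its medians were 0.12, 0.14 and 0.30 for siRNAs 1 to 3. PSMA2 had values of -0.08 and -0.17 in the controls against 0.17, -0.04 and 0.22 for siRNAs 1 to 3. All 3 knockdown arrays were above both controls, at a mean difference of 0.24 ± 0.14 (SD, n = 3 siRNAs, limma SE 0.39, adjusted p = 0.9999). Of its 2 probe sets, 201317_s_at read -0.08 under siRNA 2, below its control values of -0.05 and 0.00. PSMA7 was the most even of the ring after averaging its probe sets, at 0.17, 0.24 and 0.27. Singly these stood at 0.10, 0.11 and 0.36 (201114_x_at) and at 0.23, 0.37 and 0.18 (216088_s_at). PSMA4 stood at 0.24, 0.11 and 0.31.

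PSMA3 was the alpha gene below the control under siRNA 3. Its values were 0.00 and -0.09 in the controls, 0.03 and 0.13 under siRNAs 1 and 2, and -0.50 under siRNA 3, which stood below the other 4 arrays. The mean difference was -0.07 ± 0.33 (SD, n = 3 siRNAs), and without siRNA 3 it was 0.12. PSMA1 and PSMA5 split by siRNA, at -0.09, -0.32 and 0.28 for PSMA1 and -0.41, 0.19 and 0.56 for PSMA5. The low value of PSMA5 under siRNA 1 came from 1 of its 2 probe sets, at -0.78, while the other read -0.05.

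The beta ring, which carries the proteolytic sites, split between siRNAs in most of its genes. All 8 measured genes were higher under siRNA 3 (median 0.42, range 0.27 to 1.04), and in all 8 siRNA 3 was the highest of the 5 arrays after averaging probe sets. Single probe sets without this order were 238425_at of PSMB2 and 228204_at of PSMB4, which differed by -0.26 and 0.08 under siRNA 3. Under siRNAs 1 and 2 the medians of the ring were -0.05 and -0.03, with 2 of 8 genes higher in each, PSMB6 and PSMB7 both times. Because of this split, the median of the mean differences was 0.08 with 3 siRNAs and -0.04 without siRNA 3.

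The 3 catalytic subunits of the standard core differed in how far they followed siRNA 3. PSMB5, the chymotrypsin-like subunit and main target of bortezomib, had values of 0.02 and 0.00 in the controls, -0.05 and -0.02 under siRNAs 1 and 2, and 0.28 under siRNA 3. The first 4 arrays lay close together and siRNA 3 stood above them. The mean difference was 0.06 ± 0.18 (SD, n = 3 siRNAs). PSMB6, the caspase-like subunit, had values of 0.00 and -0.22 in the controls against 0.33, -0.03 and 0.41 for siRNAs 1 to 3. Here siRNAs 1 and 3 were above both controls and siRNA 2 lay between them, at a mean difference of 0.35 ± 0.23.

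PSMB7, the trypsin-like subunit, showed the widest difference of any member under siRNA 3. Its values were -0.49 and -0.09 in the controls, -0.11 and 0.00 under siRNAs 1 and 2, and 0.75 under siRNA 3. The siRNA 1 array read between the controls, siRNA 2 a little above both and siRNA 3 far above both, and the mean difference was 0.51 ± 0.47 (SD, n = 3 siRNAs; 0.24 without siRNA 3). Its 2 probe sets stood at 0.56 and 1.53 under siRNA 3, and the first of them alone gave 0.19 and 0.16 under siRNAs 1 and 2. PSMB10, the subunit that replaces PSMB7 in the interferon-induced immunoproteasome, ranged from low to high between siRNAs. Its values were 0.00 and 0.22 in the controls against -0.49, -0.01 and 0.62 for siRNAs 1 to 3, so siRNAs 1 and 3 lay on opposite sides of the controls. The other 2 inducible subunits, left out of the members by the rule, stood at -0.09, 0.80 and 0.77 (PSMB8) and 0.05, 0.92 and 1.99 (PSMB9) under siRNAs 1, 2 and 3. All 3 inducible genes were thus above the control by 0.51 or more under siRNA 3, and PSMB10 did not share the higher values of the other two under siRNA 2.

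**Figure D3:**
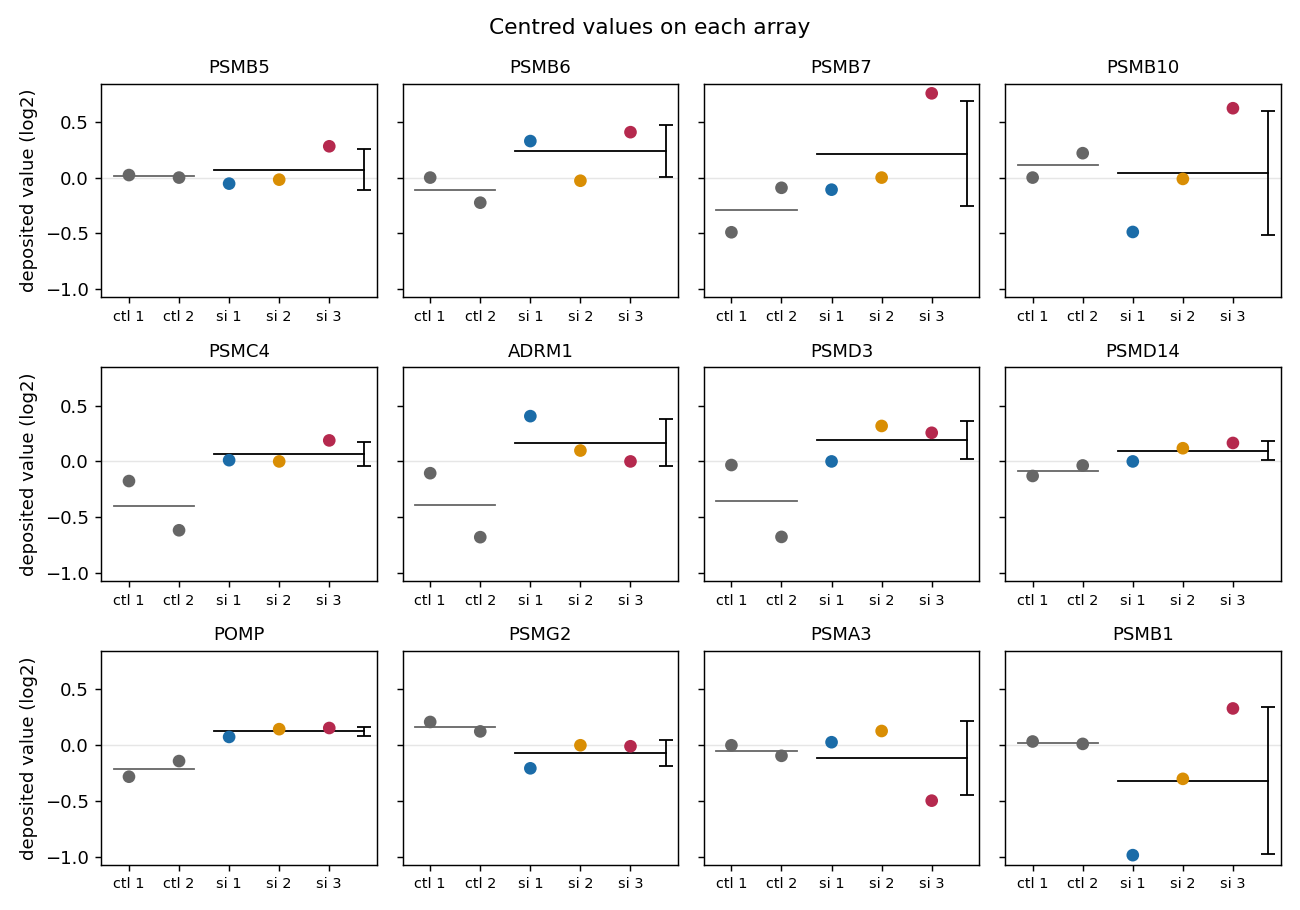
Deposited value (log2, centred per probe set and averaged per gene, y axis) on the 2 control arrays (grey) and under siRNAs 1, 2 and 3 (blue, orange, red) for 12 proteasome genes. Horizontal lines are group means and the bar at the right of each panel is the SD over the 3 siRNAs; siRNA 3 is the highest point for the catalytic subunits and PSMB10, and the lowest for PSMA3.

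Of the beta subunits without a proteolytic site, PSMB3 differed by -0.08 for siRNA 1 and 0.50 for siRNA 3, and was level with the control for siRNA 2. PSMB4 stood at -0.02, -0.05 and 0.34, and PSMB2 at -0.03, -0.03 and 0.28. PSMB1 was the lowest member in mean difference, at -0.34 ± 0.66 (SD, n = 3 siRNAs). Its values were 0.03 and 0.01 in the controls against -0.98, -0.30 and 0.33 for siRNAs 1 to 3, so that only siRNA 3 was above the controls. The low reading came mostly from probe set 214289_at, which stood at -2.77 and -0.71 under siRNAs 1 and 2. The other 2 probe sets of PSMB1 read -0.02 and -0.23 under siRNA 1 and 0.33 and 0.42 under siRNA 3. With the median of the probe sets in place of their mean, the mean difference of PSMB1 was -0.02.

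The ATPases, which form a ring at the bottom of the cap and thread substrates into the core, were higher under siRNA 3 in 5 of 5 measured genes. Their medians were 0.04, 0.09 and 0.32 for siRNAs 1 to 3, and under siRNA 3 they spanned 0.22 to 0.58. PSMC4 was the highest in mean difference. Its values were -0.18 and -0.62 in the controls against 0.01, 0.00 and 0.19 for siRNAs 1 to 3, all above both controls, at 0.46 ± 0.11 (SD, n = 3 siRNAs, limma SE 0.38, adjusted p = 0.9999). Without control array 2 this mean was 0.24. PSMC1 was the lowest, with values of 0.00 and 0.08 in the controls against -0.16, -0.10 and 0.42 for siRNAs 1 to 3, so that siRNA 3 alone exceeded the controls. PSMC3 stood at 0.04, 0.09 and 0.26, and PSMC6 at 0.09, -0.03 and 0.32.

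PSMC2 was the ATPase whose siRNAs disagreed most, at -0.35, 0.73 and 0.22. Its 3 probe sets were apart: 201068_s_at stood at 0.40, 0.30 and 0.60, 201067_at at -0.65, 0.72 and 0.39, and 238020_at at -0.79, 1.17 and -0.33. Under siRNA 2 all 3 were above the control, and under siRNAs 1 and 3 they were on both sides of it.

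The base scaffold and ubiquitin receptors were higher under siRNAs 1 and 3 in most genes, with 3 of 4 under siRNA 1 and 4 of 4 under siRNA 3. Medians were 0.44, -0.07 and 0.43 for siRNAs 1 to 3. The median of the mean differences was 0.26, and without siRNA 2 it was 0.43. ADRM1, the receptor that also docks the deubiquitinase UCHL5, had the largest mean difference of all members, at 0.56 ± 0.21 (SD, n = 3 siRNAs, limma SE 0.40, adjusted p = 0.9999). Its values were -0.11 and -0.68 in the controls against 0.41, 0.10 and 0.00 for siRNAs 1 to 3. All 3 knockdown arrays were above both controls, but the gap between the controls was wider than that between siRNAs 1 and 3, and without control array 2 the mean was 0.27. ADRM1 was the only member more than 0.5 above the control under siRNA 1, at 0.80.

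Both large scaffold subunits were higher for siRNAs 1 and 3 but not for siRNA 2. PSMD1 stood at 0.38, -0.02 and 0.62 and PSMD2 at 0.49, -0.12 and 0.23. PSMD4, the other intrinsic ubiquitin receptor, had values of -0.05 and 0.12 in the controls against -0.12, -0.18 and 0.51 for siRNAs 1 to 3. Its knockdown arrays lay below both controls under siRNAs 1 and 2 and above both under siRNA 3, and its 3 probe sets read 0.46, 0.47 and 0.49 under siRNA 3.

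The lid, which clips ubiquitin chains from the substrate, was higher in most genes under each siRNA. Of 6 measured genes 4 were higher under siRNA 1, 5 under siRNA 2 and 6 under siRNA 3, with medians of 0.06, 0.25 and 0.37 for siRNAs 1 to 3, and 4 were higher under all 3. PSMD14, the metalloprotease that performs the cleavage, had values of -0.13 and -0.04 in the controls against 0.00, 0.12 and 0.17 for siRNAs 1 to 3. All 3 knockdown arrays were above both controls by a small margin, at a mean difference of 0.18 ± 0.09 (SD, n = 3 siRNAs). PSMD3, a structural subunit, had values of -0.03 and -0.68 in the controls against 0.00, 0.32 and 0.26 for siRNAs 1 to 3, at 0.55 ± 0.17 (limma SE 0.39, adjusted p = 0.9999). As for PSMC4 and ADRM1, control array 2 was the low array, and without it the mean was 0.22.

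Among the other structural subunits of the lid, PSMD12 stood at 0.15, 0.30 and 0.26 and PSMD8 at 0.03, 0.30 and 0.33. The probe sets of PSMD12 were apart, at 0.34, -0.17 and 0.35 (202352_s_at) and at -0.04, 0.78 and 0.17 (202353_s_at). PSMD11, whose level has been linked to proteasome assembly in stem cells, stood at -0.33, 0.02 and 0.60. PSMD6 was the lowest lid gene, with values of 0.00 and 0.22 in the controls against -0.23, -0.22 and 0.53 for siRNAs 1 to 3. Both lower readings of PSMD6 came from probe set 1555884_at, at -0.80 and -0.67, while 202753_at read 0.13 and 0.01, and both probe sets were higher under siRNA 3, at 0.45 and 0.38.

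**Figure D4:**
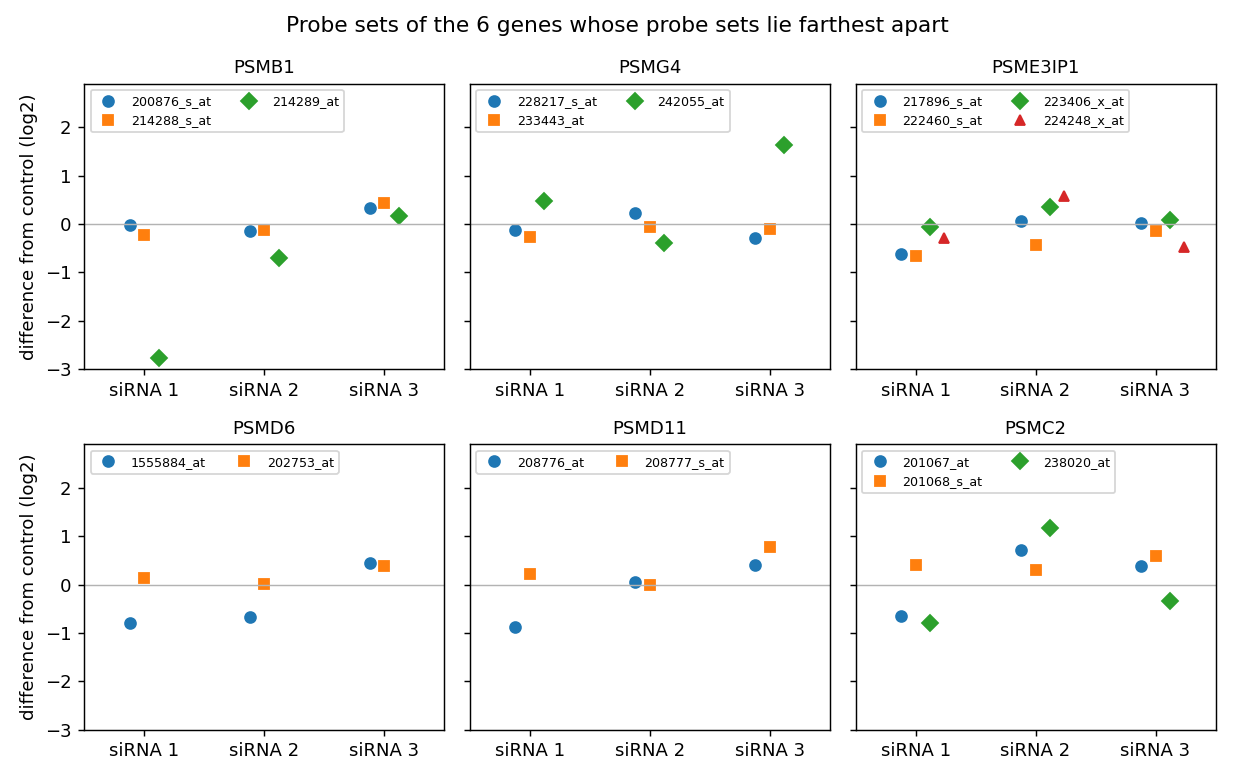
Difference from the mean of the control arrays (log2, y axis) under siRNAs 1, 2 and 3 for each probe set of the 6 proteasome genes whose probe sets lie farthest apart in mean difference. For PSMB1, 1 probe set reads -2.77 under siRNA 1 where the other 2 read -0.02 and -0.23.

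Assembly factors were mixed, and PSMG2 and PSMG3 were among the 4 members lower under siRNA 3, with PSMA3 and PSME3IP1. Medians over the 8 genes were 0.00, -0.12 and 0.17 for siRNAs 1 to 3, with 4, 2 and 6 genes higher. The median of their mean differences was 0.07, and it was -0.05 without siRNA 3 and -0.04 without control array 1. POMP, the chaperone that closes the beta ring and is itself degraded by the finished core, was the most even member after averaging its probe sets. Singly these were less even, at 0.10, 0.12 and 0.41 (217769_s_at) and at 0.47, 0.60 and 0.32 (222402_at) for siRNAs 1 to 3. The averaged values of POMP were -0.28 and -0.14 in the controls against 0.07, 0.14 and 0.15 for siRNAs 1 to 3. All 3 knockdown arrays were above both controls, at a mean difference of 0.34 ± 0.04 (SD, n = 3 siRNAs, limma SE 0.38, adjusted p = 0.9999).

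The 4 PSMG chaperones, which pair up to build the alpha ring, were split in direction. PSMG2 had values of 0.21 and 0.12 in the controls against -0.21, 0.00 and -0.01 for siRNAs 1 to 3. All 3 knockdown arrays were below both controls, at a mean difference of -0.24 ± 0.12 (SD, n = 3 siRNAs, limma SE 0.38, adjusted p = 0.9999). Its partner PSMG1 stood at -0.05, -0.30 and 0.12. In the other pair, PSMG3 stood at 0.04, -0.43 and -0.17 and PSMG4 at 0.02, -0.08 and 0.41. For PSMG4 the control arrays differed by 0.72, and of its 3 probe sets only 242055_at was higher under siRNA 3, at 1.63, while the others read -0.28 and -0.11.

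The 3 members that are chaperones of the ATPase ring were all higher under siRNA 3. PSMD10, also known as the oncoprotein gankyrin, stood at -0.11, 0.34 and 0.39. PSMD5 stood at 0.46, -0.11 and 0.13, and PSMD9 at -0.02, -0.14 and 0.20. The probe sets of PSMD9 disagreed, at 0.38, -0.41 and -0.01 (207805_s_at) and at -0.43, 0.13 and 0.42 (209334_s_at).

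Activators that can replace the cap, with the inhibitor, had medians of -0.20, 0.14 and 0.15 for siRNAs 1 to 3. They were lower under siRNA 1 in 4 of 5 genes and higher under siRNA 2 in 5 of 5. Under siRNA 3, 4 of 5 read above control array 2 but 1 of 5 above control array 1. The median of their mean differences was 0.08, and without control array 2 it was -0.17, without siRNA 2 -0.06 and without siRNA 3 -0.01. PSME1, an interferon-inducible subunit of the 11S cap, had values of 0.00 and -0.01 in the controls against -0.20, 0.17 and 0.46 for siRNAs 1 to 3, at 0.15 ± 0.33 (SD, n = 3 siRNAs). It read below the controls under siRNA 1 and above them under the others. PSME3, the nuclear 11S subunit, stood at 0.02, 0.06 and 0.15 with control arrays -0.53 apart. PSME4, the large single-chain activator of nuclei and sperm, stood at -0.42, 0.06 and 0.25 with controls -0.51 apart. PSMF1, named as an inhibitor of the core, stood at -0.19, 0.42 and 0.07.

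PSME3IP1, a binding partner of PSME3, was the lowest of this group. Its values were 0.09 and 0.02 in the controls against -0.36, 0.19 and -0.08 for siRNAs 1 to 3, so siRNA 2 was above both controls and the other arrays below them. The mean difference was -0.13 ± 0.28 (SD, n = 3 siRNAs).

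Set side by side under siRNA 3, the medians were 0.33 over the 14 core genes, 0.38 over the 15 genes of ATPases, base and lid, and 0.15 over the 13 assembly factors, activators and inhibitor. In the same order, 13, 15 and 10 genes were higher. Under siRNA 1 the medians were -0.02, 0.08 and -0.05, and under siRNA 2 they were 0.04, 0.09 and 0.06. These groups share the same control arrays and were not tested against each other. Over single probe sets in place of genes, 66 of 78 were higher under siRNA 3 (median 0.32), 38 under siRNA 1 (-0.03) and 42 under siRNA 2 (0.06).

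Genes that work beside the proteasome did not share its median under siRNA 3. The list held 25 genes for ubiquitin, shuttles, deubiquitinases, the VCP segregase and the NFE2L1 pathway, of which 20 were measured, and its medians were 0.01, -0.03 and 0.06 for siRNAs 1 to 3. In it 10, 9 and 12 genes were higher, 2 were higher and 1 lower under all 3, and limma called 0, with 0 at an unadjusted p under 0.05. The NFE2L1 transcript had values of 0.13 and 0.08 in the controls against 0.15, -0.35 and -0.03 for siRNAs 1 to 3. It thus read no higher than the controls under siRNAs 2 and 3. The NFE2L1 protein and its activity were not measured. UFD1, a cofactor of VCP that recognises ubiquitin chains, was higher under all 3, at 0.41, 0.15 and 0.66, and the shuttle receptor UBQLN4 was lower under all 3, at -0.08, -0.85 and -0.52. The cytosolic chaperonin, an abundant ring that folds proteins, had medians of -0.07, 0.05 and 0.08 over 7 of its 8 genes. Of these, 5 were higher under siRNA 3.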

How the data were processed

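The submitters' processing notes name MAS5 as the summary method. Values deposited by the authors range from -7.05 to 7.47 and were treated as log2 values. The log base, the filter on probe sets and any scaling between arrays are not given in the sources used here; base 2 is an assumption. The median of each of the 30137 probe sets over the arrays was exactly 0, so levels and signal over background were unknown. The platform's annotation table gave 1 symbol to 24151 probe sets, several to 1175 and none to 4753, and 58 were control probe sets. Probe sets of a gene were averaged. Limma 3.58.1 in R 4.3.3 (lmFit and eBayes, two-sided, no trend, no filter) compared the 3 siRNAs with the mean control, with 2 residual degrees of freedom, and assumed that the lone control varies like the knockdowns. The variance of each gene was moderated by a prior over all genes, with variance 0.175 and 2.99 degrees of freedom. This prior weighed more than the gene's own spread. P-values were adjusted by Benjamini-Hochberg across the 12893 genes and called below 0.05. The fit was tested on simulated data. Subgroups and lists were described by counts and medians.

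The members, lists and alternatives were chosen with earlier results of these data known. Values on every array were given for the highest and lowest gene of each subgroup, the catalytic subunits, PSMB10 and PSMD14. Spike-in sets were read from the poly-A probe sets. Alternatives were other ways to combine probe sets, quantile or scale normalization, separate controls, blocks, each siRNA against the control array of its spike-in set, leaving out each array, and genes with control arrays under 0.5 apart. Python 3.11.15 with pandas 2.3.3 made the tables, and matplotlib 3.10.9 drew the plots.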

Additional observations from a re-analysis of the deposited data

How the results depend on the processing

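Limma called 0 genes and 0 proteasome members under each alternative, while the number of all genes at an unadjusted p under 0.05 ran from 86 to 1161 and that of members from 0 to 1. The number of members higher under siRNA 3 was 33 (of 37) to 38 and their median 0.30 to 0.34 over 10 alternatives, and the medians ran from -0.03 to 0.04 for siRNA 1 and from 0.01 to 0.08 for siRNA 2. The median of activators and inhibitor ran from -0.17 to 0.17 when 1 array was left out, and the -0.17 was without control array 2. KDM1B stayed lower, from -2.29 to -0.90.

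Single members with means near 0 changed sign. Leaving out 1 array gave ranges of -0.19 to 0.12 for PSMA3, -0.36 to 0.20 for PSMB10, -0.0475 to 0.12 for PSMB5, -0.17 to 0.12 for PSMC1, -0.19 to 0.16 for PSMD4, -0.33 to 0.0445 for PSMD6, -0.0105 to 0.32 for PSME1 and -0.27 to 0.0042 for PSME3IP1. With the spike-in set as a block PSMB10 stood at 0.03 and PSMD6 at 0.0047. The replicate block by label number leaves siRNA 3 without a partner and so equals its removal in value: it gave 0.12 for PSMA3, -0.0475 for PSMB5, -0.17 for PSMC1, -0.19 for PSMD4 and -0.0105 for PSME1. Arrays of the same number deviated from their group means with correlations of 0.10 and -0.05 across 12893 genes. The deviations of 2 control arrays from their mean are exact opposites, so these correlations cannot decide whether same-numbered arrays were paired. Control array 1 and siRNA 1 shared a spike-in level, and control array 2 and siRNA 2 did not. With the block no gene was called (0), and 707 had an unadjusted p below 0.05, beside 218 without it.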
